A study of Homo sapiens with 10 samples.

Results

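The genes described here are 10 feedback regulators and effectors of the tumour suppressor p53: MDM2, MDM4, PPM1D, CCNG1, TP53INP1, ZMAT3, TIGAR, AEN, PHLDA3 and BTG2. A gene was measured where a row of the expression table is annotated with its symbol alone, and where several such rows exist the one with the highest mean over the arrays stands for it. That gave 7 of the 10 genes, among 14232 genes in all, and each of the 7 had a single row. PPM1D and AEN lie only on rows that carry a second symbol, whose values are given as values of those rows. BTG2 was not analysed here because none of the annotated rows carries it. Expression was measured in SH-SY5Y cells, an established human neuroblastoma line subcloned from SK-N-SH, on exon arrays hybridised with biotin-labelled material from total RNA. Treated cells (5 arrays, paraquat 8, 12, 14, 18 and 20) had been exposed to paraquat, a redox-cycling herbicide that gives rise to superoxide. Untreated cells of the same line gave the other 5 arrays (ctrl 7, 11, 13, 17 and 19). Both groups come from that 1 line, and neither the paraquat dose nor the exposure time is stated in the labels.

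Damaged DNA and other stresses stabilise p53, a transcription factor that raises the transcription of genes that halt the cell cycle, repair DNA or start apoptosis. Several of its targets act back on it: MDM2 ubiquitinates p53 for degradation, MDM4 covers its activation domain, the phosphatase PPM1D (WIP1) removes activating phosphates from p53 and its kinases, and cyclin G1 (CCNG1) brings a phosphatase to MDM2. MDM2 is transcribed from an outer promoter and from an inner one in its first intron, and the inner one is the textbook site of p53 binding in this gene.

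RefSeq windows of 300 bases, from 250 before a transcription start to 50 from it onward (GRCh38.p14), were examined for 8 of the 10 genes. Windows of PHLDA3 and TP53INP1 were not among them, so whether these genes have such a site was not tested. Windows are shown because the measured members rose and because MDM2 has both an outer and an inner start. Each window was searched for the p53 consensus site of 20 bases without a spacer, which reads the same on both strands, and the position with the fewest mismatches was kept. At most 2 mismatches were found in 0.65% of 34943 distinct windows of the annotation, and the median window had 5. That limit was set after the members' windows had been seen. Among these 8 genes, MDM2 and AEN had such a window, and the other 6 had a best match with 4 to 6 mismatches. In MDM2 the match lay in the windows of the inner start sites, and those of the outer start sites had 5 mismatches at best. Capitals mark matches with at most 2 mismatches. The windows are the outer start of MDM2 on the plus strand (chr12:68807922-68808221), its inner start (chr12:68808767-68809066), the start of AEN (chr15:88621090-88621389) and that of MDM4 (chr1:204516156-204516455), all on the plus strand.
MDM2 outer start: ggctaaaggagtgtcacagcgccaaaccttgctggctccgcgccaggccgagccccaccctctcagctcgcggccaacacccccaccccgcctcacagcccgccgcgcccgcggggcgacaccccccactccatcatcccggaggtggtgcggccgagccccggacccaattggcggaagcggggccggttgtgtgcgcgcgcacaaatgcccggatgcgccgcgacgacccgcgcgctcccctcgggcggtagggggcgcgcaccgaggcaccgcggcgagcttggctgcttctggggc
MDM2 inner start: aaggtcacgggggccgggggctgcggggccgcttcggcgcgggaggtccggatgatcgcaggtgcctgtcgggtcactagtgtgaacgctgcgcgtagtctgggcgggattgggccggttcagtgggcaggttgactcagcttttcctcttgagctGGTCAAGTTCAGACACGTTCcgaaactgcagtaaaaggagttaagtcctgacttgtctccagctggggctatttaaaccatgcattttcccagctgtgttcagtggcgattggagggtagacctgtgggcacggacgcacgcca
AEN start: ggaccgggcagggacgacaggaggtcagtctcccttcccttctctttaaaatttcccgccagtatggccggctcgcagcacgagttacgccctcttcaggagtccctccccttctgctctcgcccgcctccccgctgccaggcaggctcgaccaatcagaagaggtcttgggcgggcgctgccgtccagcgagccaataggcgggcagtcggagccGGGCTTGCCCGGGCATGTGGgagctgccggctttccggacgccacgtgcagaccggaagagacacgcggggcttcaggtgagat
MDM4 start: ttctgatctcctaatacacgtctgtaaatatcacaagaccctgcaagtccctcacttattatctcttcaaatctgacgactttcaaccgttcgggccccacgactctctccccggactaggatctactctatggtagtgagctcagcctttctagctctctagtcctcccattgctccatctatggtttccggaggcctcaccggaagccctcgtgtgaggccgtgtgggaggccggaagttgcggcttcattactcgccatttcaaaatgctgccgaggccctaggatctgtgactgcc
In the inner MDM2 window the match began at position -94 relative to the start site, and in the AEN window at position -34. A match describes the sequence only, and no binding was measured. The array gives 1 value for the whole MDM2 transcript cluster, so that transcripts from the outer and the inner start cannot be told apart.

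Levels are log2 values after RMA, which subtracts background, equalises the arrays and summarises probes, and they are not compared between genes because probes differ in brightness. Calls were made with limma at an adjusted p under 0.05, after Benjamini-Hochberg adjustment over all 22011 rows. All 7 measured genes rose with paraquat, where 8.51% of all rows and 9.55% of all genes rose. Their median log2 change was 1.23, and the median of all genes was -0.004. Every paraquat array lay above every ctrl array in 6 of the 7, which was so for 8.34% of all genes. Largest was the change of PHLDA3, followed by those of TP53INP1, MDM2, TIGAR, CCNG1, ZMAT3 and MDM4. Differences between neighbours in that order were not tested except where a pair is named below. The p-values measure the spread between arrays, which may be technical, since separate cultures are not mentioned in the labels.

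Across the whole table, array medians lay between 6.78 and 6.93. Pearson correlations over rows were 0.977 to 0.993 within groups and 0.961 to 0.981 between them. Ctrl 11 stood apart by the widest deviations from its group (SD 0.358), against 0.206 to 0.291 on the other 9 arrays. The 7 members were all called without ctrl 11, and also without both ctrl 11 and paraquat 12.

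**Figure D1:**
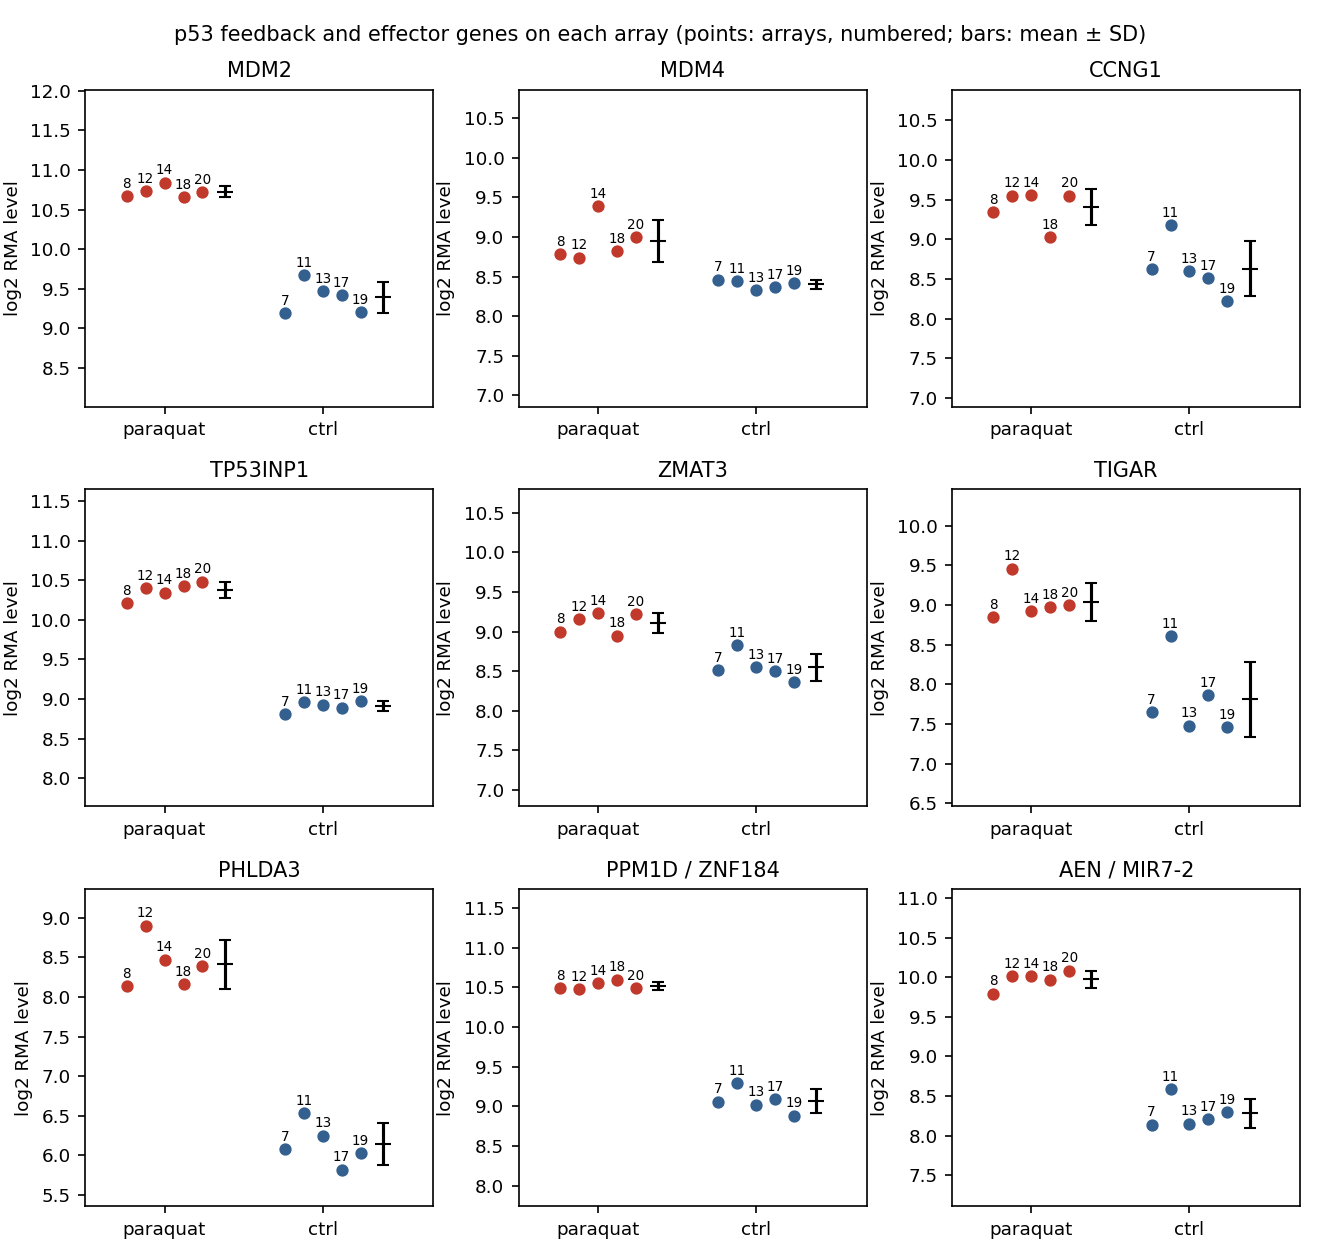
Log2 RMA level (vertical axis, each panel spanning the same width) of the 7 measured genes and of the rows shared by PPM1D with ZNF184 and AEN with MIR7-2, on each paraquat and ctrl array (points, numbered as in the sample titles), with mean ± SD (n = 5). The groups overlap only in CCNG1, where ctrl 11 at 9.18 lies above paraquat 18 at 9.03.

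Of the brakes on p53 with a row of their own, MDM2, the ubiquitin ligase that marks p53 for degradation, rose most. MDM2 (transcript cluster 3421300) read 10.67, 10.73, 10.84, 10.66 and 10.72 in paraquat 8, 12, 14, 18 and 20, against 9.19, 9.67, 9.47, 9.42 and 9.21 in ctrl 7, 11, 13, 17 and 19. The paraquat arrays lay close together, and the lowest of them stood 0.99 above the highest ctrl array. The means were 10.73 ± 0.07 with paraquat and 9.39 ± 0.20 in ctrl (SD, n = 5 each), a 2.52-fold increase (log2 change 1.33 ± 0.10 SE, limma adjusted p = 8.26e-06).

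MDM4, the relative of MDM2 that binds p53 and blocks its activation domain, rose less. MDM4 (transcript cluster 2376037) read 8.78, 8.74, 9.39, 8.82 and 9.00 with paraquat, against 8.46, 8.44, 8.33, 8.37 and 8.42 in ctrl, in the same array order. Ctrl arrays were tightly grouped, and paraquat 14 was well above the other treated arrays. The log2 change was 0.54 ± 0.12 (limma adjusted p = 0.00835), and 0.43 without paraquat 14. The gap between MDM2 and MDM4 widened by 0.79 ± 0.13 (SE) on the log2 scale (exact two-sided permutation p = 0.00794, n = 5 each, and adjusted p = 0.00794 over the 5 pairs of relatives compared). That p is the smallest that 5 against 5 arrays can give, and the pairs were chosen after their values were seen.

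CCNG1, cyclin G1, which recruits a regulatory subunit of protein phosphatase to MDM2, also rose. CCNG1 (transcript cluster 2838598) read 9.34, 9.55, 9.56, 9.03 and 9.55 with paraquat, against 8.62, 9.18, 8.60, 8.51 and 8.22 in ctrl. This was the single measured member whose groups overlapped, through ctrl 11 and paraquat 18. Its log2 change was 0.78 ± 0.17 (limma adjusted p = 0.00776, exact permutation p = 0.0159), and 0.92 without ctrl 11. The row assigned to both PPM1D, the p53-induced phosphatase, and the zinc finger gene ZNF184 read 10.49, 10.48, 10.55, 10.60 and 10.49 with paraquat, against 9.06, 9.29, 9.02, 9.09 and 8.88 in ctrl, with no overlap. It rose by 1.45 ± 0.09 (limma adjusted p = 1.37e-06), and how much of this comes from either gene cannot be told.

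Among the partners and effectors, PHLDA3 had the largest change of all measured members. PHLDA3 encodes little more than a lipid-binding pleckstrin homology domain and competes with the survival kinase AKT for membrane lipids. PHLDA3 (transcript cluster 2450855) read 8.14, 8.90, 8.47, 8.16 and 8.39 with paraquat, against 6.08, 6.53, 6.25, 5.82 and 6.03 in ctrl. Both groups spread by about the same amount and stood 1.61 apart at their nearest arrays. It rose 4.82-fold (log2 change 2.27 ± 0.17, limma adjusted p = 6.09e-06).

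TP53INP1, a stress-induced nuclear protein that helps kinases reach p53 and also takes part in autophagy, had the smallest standard error of the 7. TP53INP1 (transcript cluster 3145149) read 10.21, 10.40, 10.34, 10.42 and 10.48 with paraquat, against 8.81, 8.96, 8.93, 8.89 and 8.97 in ctrl. No array stood out in either group. It rose 2.75-fold (log2 change 1.46 ± 0.08, limma adjusted p = 6.1e-07).

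TIGAR, a phosphatase that lowers the sugar phosphate activating phosphofructokinase and so directs glucose towards the NADPH-producing pentose phosphate pathway, rose with a wider spread. TIGAR (transcript cluster 3401756) read 8.85, 9.46, 8.92, 8.97 and 9.00 with paraquat, against 7.65, 8.61, 7.48, 7.86 and 7.46 in ctrl. Paraquat 12 was the highest treated array and ctrl 11 the highest untreated one, and the groups were only 0.24 apart. The increase was 2.34-fold (log2 change 1.23 ± 0.21, limma adjusted p = 0.00192), with log2 changes of 1.43 without ctrl 11 and 1.32 without both of these arrays.

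ZMAT3, a zinc finger protein that binds RNA (also known as WIG1), rose by a smaller amount. ZMAT3 (transcript cluster 2706791) read 9.00, 9.16, 9.23, 8.95 and 9.22 with paraquat, against 8.51, 8.83, 8.55, 8.50 and 8.36 in ctrl. Ctrl 11 came within 0.12 of the lowest treated array. The log2 change was 0.56 ± 0.10 (limma adjusted p = 0.00292), a 1.48-fold increase. The row assigned to AEN, an apoptosis-enhancing nuclease, and to the microRNA gene MIR7-2 read 9.79, 10.01, 10.01, 9.97 and 10.08 with paraquat, against 8.14, 8.59, 8.15, 8.21 and 8.30 in ctrl, with no overlap. It rose by 1.69 ± 0.10 (limma adjusted p = 1.69e-06), with the same limit as for the PPM1D row.

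**Figure D2:**
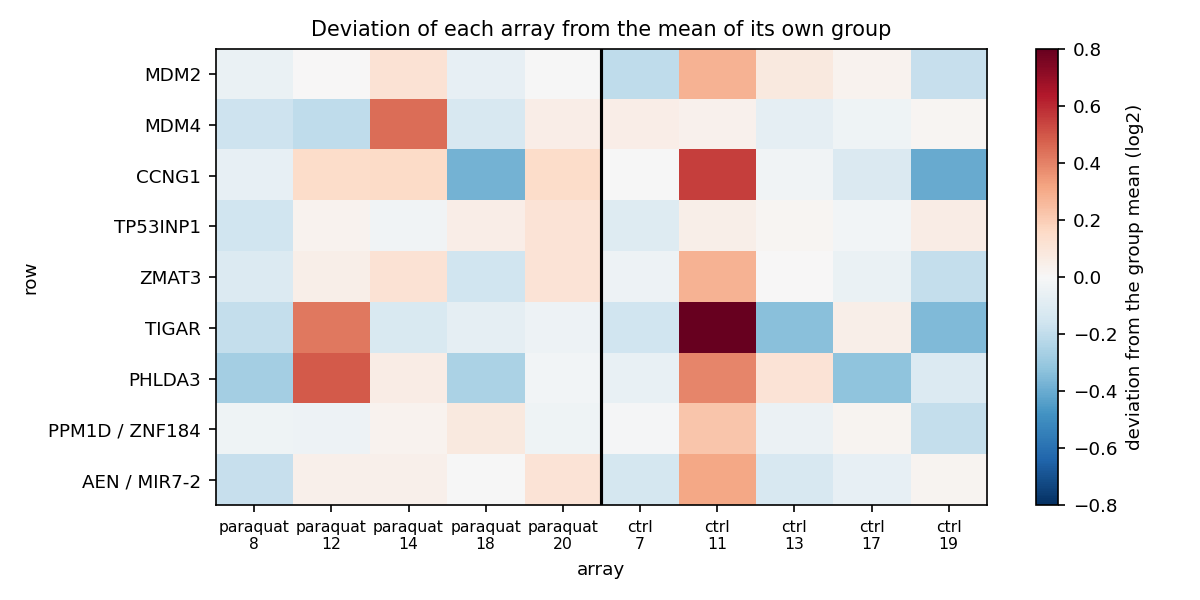
Deviation of each array (columns) from the mean of its own group, in log2 units, for the 7 measured genes and the rows shared by PPM1D and AEN with other symbols. Ctrl 11 is the highest ctrl array in 5 of the 7 genes, and paraquat 14 the highest treated array in 4.

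The members varied among themselves also within a group. Ctrl 11 was the highest ctrl array in 5 of the 7 genes, with a median deviation of 0.28 from the group means. Paraquat 8 and paraquat 18 were each the lowest treated array in 3 genes. Over the alternatives tried, the members' log2 changes stayed between 0.43 and 0.61 for MDM4, 0.52 and 0.63 for ZMAT3, 0.68 and 0.92 for CCNG1, and 2.15 and 2.37 for PHLDA3. The changes of TIGAR covered 1.12 to 1.43, those of MDM2 1.28 to 1.40 and those of TP53INP1 1.43 to 1.51, and the highest adjusted p of any member under any of them was 0.0244, for MDM4.

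Relatives of the members showed mixed changes. Of 21 measured relatives, 6 rose and 3 fell, with a median log2 change of 0.03, where 9.55% of all genes rose and 14.2% fell. CCNG2, the other cyclin G, had a change of 0.13 ± 0.09 (limma adjusted p = 0.393), and the CCNG1 change exceeded it by 0.65 ± 0.14. TP53INP2, which acts in autophagy, had a change of 0.16 ± 0.15 (limma adjusted p = 0.557), 1.30 ± 0.13 less than TP53INP1. PHLDA2 rose by 0.67 ± 0.12 (limma adjusted p = 0.00184) and PHLDA1 had a change of 0.32 ± 0.22 (limma adjusted p = 0.383). PHLDA3 exceeded PHLDA2 by 1.60 ± 0.23 and PHLDA1 by 1.95 ± 0.40. Each of these 4 differences had an exact two-sided permutation p of 0.00794 (n = 5 each), and each passed with any 1 array left out. Probes of different rows can respond unequally to the same change, so the differences show unequal change of signal.

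Of the bifunctional kinases and phosphatases related to TIGAR that set the same sugar phosphate, PFKFB3, the form with the strongest kinase activity, rose by 1.47 ± 0.09 (limma adjusted p = 1.15e-06) and PFKFB2 rose by 0.46 ± 0.11 (limma adjusted p = 0.0155). PFKFB4 fell by 0.29 on the log2 scale (limma adjusted p = 0.0492), a call that ended under 13 of the alternatives, at changes of -0.24 to -0.32. TOB1, an antiproliferative relative of BTG2, rose by 1.22 ± 0.10, while TOB2 had a change of -0.03 (limma adjusted p = 0.92). BTG3 rose by 0.49 ± 0.15 (limma adjusted p = 0.0404, and 0.00271 to 0.0908 over the alternatives), and a row shared by BTG1 and LINC01619 by 1.22 ± 0.14. Among the phosphatases related to PPM1D, PPM1L fell by 0.67 and PPM1B fell by 0.41 on the log2 scale (limma adjusted p = 0.00696 and 0.0183, and for PPM1B 0.0528 without paraquat 20). ISG20, the exonuclease related to AEN, rose by 1.65 ± 0.16 (limma adjusted p = 4.85e-05).

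**Figure D3:**
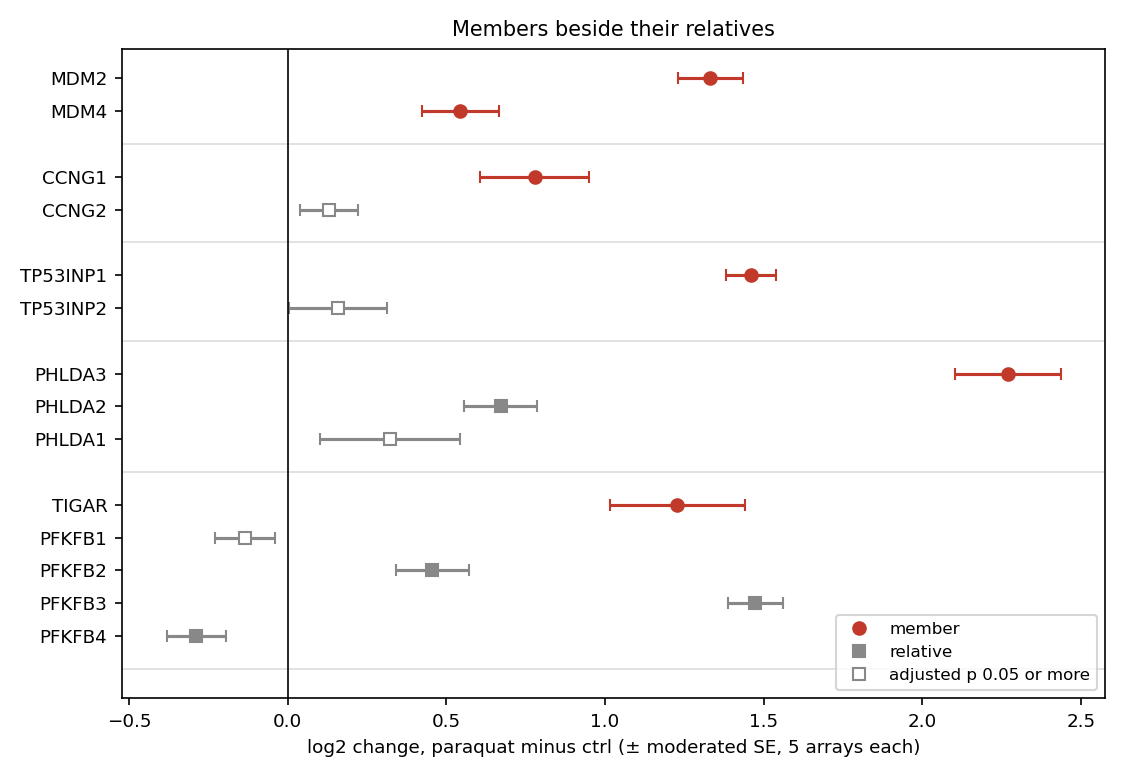
Log2 change, paraquat minus ctrl (horizontal axis, ± moderated SE, 5 arrays each), of members (circles) and relatives of the same family (squares, open where the adjusted p was 0.05 or more). MDM2 lies to the right of MDM4, and CCNG1, TP53INP1 and PHLDA3 lie to the right of each relative drawn below them, while TIGAR at 1.23 lies to the left of PFKFB3 at 1.47.

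Other direct targets of p53 mostly rose too, where 9.55% of all genes rose and 14.2% fell. Of 31 measured, 24 rose and 0 fell in limma (0 also at an unadjusted p under 0.05, and 1 fell with array weights), with a median log2 change of 1.12, and 23 rose without both ctrl 11 and paraquat 12. FAS, a death receptor, rose by 2.81 ± 0.13, the stress protein GADD45A by 2.67 ± 0.18, the sestrin SESN2 by 2.54 ± 0.12 and the cyclin-dependent kinase inhibitor CDKN1A by 2.47 ± 0.11. These targets were listed with earlier results of these data known, so their direction is no independent evidence. The 7 that did not pass had changes of -0.28 for APAF1, 0.03 for PERP, 0.09 for TNFRSF10C, 0.09 for SPATA18, 0.24 for TP53I3, 0.26 for CMBL and 0.66 for RPS27L. RPS27L, a ribosomal protein relative, had the widest standard error of the list, 0.46.

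Genes upstream of p53 and its modifiers were also measured. Of 15 with a row, 0 rose and 2 fell in limma (0 and 5 at an unadjusted p under 0.05), where 9.55% of all genes rose and 14.2% fell. Their median log2 change was -0.17. Of the upstream genes on rows with several symbols, HUWE1 had a row that fell by 0.57 on the log2 scale. Its limma adjusted p was 0.0448, and 0.00229 to 0.106 over the alternatives. Such rows of ATM, COP1 and EP300 did not pass. PRKDC, the catalytic subunit of the DNA-dependent protein kinase, fell by 0.67 on the log2 scale (limma adjusted p = 0.00741), to 9.92 ± 0.29 with paraquat, against 10.58 ± 0.19 in ctrl. ATR, the kinase of stalled replication forks, fell by 0.60 on the log2 scale (limma adjusted p = 0.0468), and that call ended in 7 of the 10 fits with 1 array left out and without both ctrl 11 and paraquat 12 (adjusted p = 0.112). The changes of the checkpoint kinases CHEK1 and CHEK2 were -0.40 (limma adjusted p = 0.0715) and -0.17 (limma adjusted p = 0.528). USP7, which removes ubiquitin from p53 and MDM2, had a change of 0.11 ± 0.08, and RCHY1, another ubiquitin ligase of p53, one of -0.17 ± 0.20.

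The effectors act through other proteins. Of 14 measured partners, 1 rose and 1 fell, where 9.55% of all genes rose and 14.2% fell, so neither count stands above that of all genes. Their median log2 change was -0.20. A row shared by GABARAPL1 and GABARAPL3 rose by 0.77 (limma adjusted p = 0.00209), while another row of the same genes had a change of 0.29 (limma adjusted p = 0.432). Rows of PPP2R5A and CNOT1 that carry further symbols did not pass. MAP1LC3B, the autophagy protein to which TP53INP1 binds, rose by 0.96 ± 0.13 (limma adjusted p = 0.000462). PPP2R5E, one of the phosphatase subunits of the kind that CCNG1 recruits, fell by 0.46 on the log2 scale (limma adjusted p = 0.00193), and 2 partners were lowered without paraquat 8, paraquat 14 or ctrl 19 and 3 without ctrl 11. The kinases that PHLDA3 opposes, AKT1 and AKT2, had changes of -0.39 ± 0.15 (limma adjusted p = 0.0993) and -0.32 ± 0.13 (limma adjusted p = 0.13). The deadenylase subunits CNOT7 and CNOT8, partners of the BTG family, had changes of -0.12 and -0.11.

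**Figure D4:**
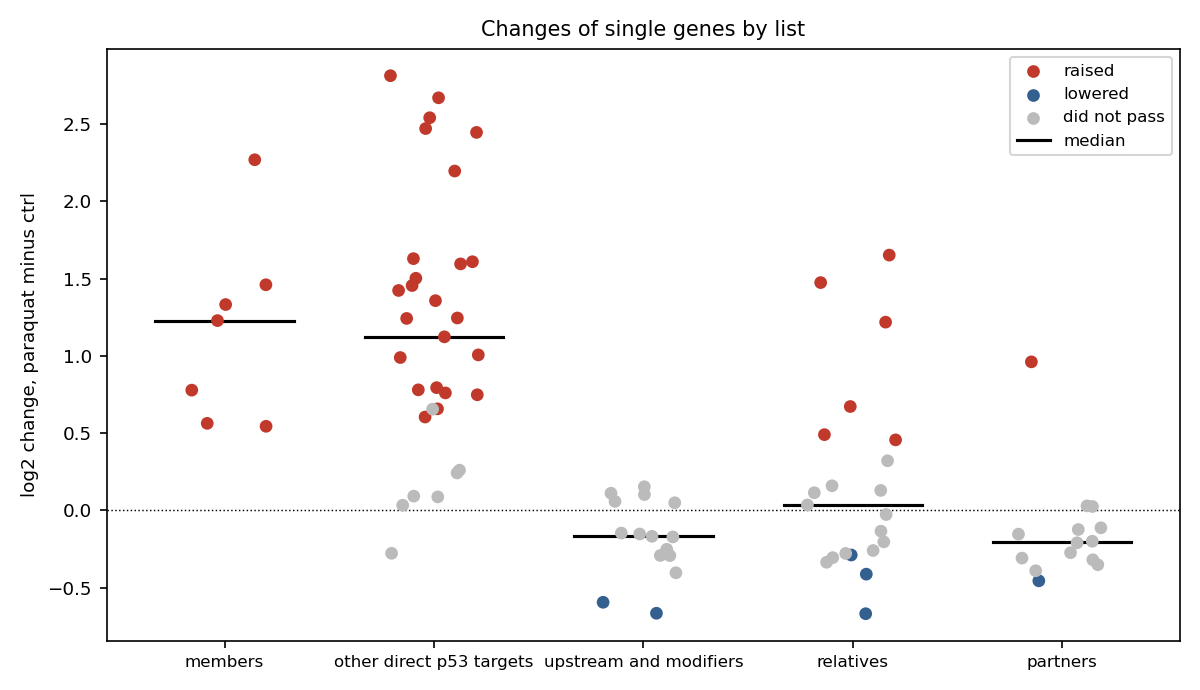
Log2 change, paraquat minus ctrl (vertical axis), of each measured gene of 5 lists (points, coloured by call at an adjusted p under 0.05), with the list median as a bar. All 7 members and 24 of 31 other targets rose, and no gene upstream of p53 did.

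The genes most like MDM2 over the 10 arrays were BDKRB2, a bradykinin receptor, WARS1, a tryptophan tRNA synthetase, CCDC71L, LARP6, an RNA-binding protein, and TXNRD1, a thioredoxin reductase. After each profile was centred on its mean over the 10 arrays, their root mean square difference from MDM2 was 0.08, 0.10, 0.11, 0.11 and 0.11 in log2 units. The nearest member was TP53INP1 at 0.15, the farthest PHLDA3 at 0.52, and the median over all genes was 0.70. The nearest genes had log2 changes of 1.33 for BDKRB2, 1.26 for WARS1, 1.42 for CCDC71L, 1.18 for LARP6 and 1.28 for TXNRD1. MDM2 had 1.33 and PHLDA3 2.27. Centring over both groups leaves the treatment change in each profile. The measure thus depends on how near a gene's change is to that of MDM2, besides the spread between arrays.

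Cell identity markers moved with the treatment as well, where 9.55% of all genes rose and 14.2% fell. Of 9 adrenergic neuroblast markers, which define the SH-SY5Y phenotype, 8 fell. The 9 had a mean level per array of 8.35 to 8.61 with paraquat and 9.46 to 9.89 in ctrl. The largest log2 changes were -2.19 for HAND1, -1.96 for TFAP2B, -1.91 for GATA2 and -1.72 for SLC6A2. TH did not pass, with a change of -0.06 (limma adjusted p = 0.685). A row shared by HAND2 and HAND2-AS1 fell by 0.76 on the log2 scale (limma adjusted p = 0.000232). The row shared by DBH, RPL7A and other genes had a change of -0.16 (limma adjusted p = 0.71). Of 11 mesenchymal neuroblastoma markers 5 rose, with a mean level of 8.27 to 8.74 with paraquat and 7.47 to 7.67 in ctrl, with log2 changes of 2.17 for FOSL2, 1.97 for SNAI2, 1.93 for TGFBI and 1.83 for CCN1. The other 6 did not pass, among them the collagens COL3A1 and COL1A1 with changes of -0.62 (limma adjusted p = 0.0666) and -0.51 (limma adjusted p = 0.0534). A row shared by NOTCH2, also on the mesenchymal list, and NOTCH2NLA had a change of -0.32 (limma adjusted p = 0.322). Of 4 glial markers 1 fell, FABP7 at 3.02 ± 0.18 with paraquat and 3.56 ± 0.36 in ctrl, both among the dimmest rows, a call that ended with 7 of the 10 arrays left out in turn. Their part in the rise of the p53 genes was not tested. In bulk RNA, a different mix of cells and a different amount of RNA per cell cannot be told apart.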

How the data were processed

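Values are log2 levels as deposited, made by the authors with RMA per the submitters' processing notes. Neither software, version, filters nor genome build is stated there. A range of 1.07 to 14.37 bears on the scale being log2. The table has 1 value per transcript cluster, and no detection calls were used, so dim rows may be at background. The number of arrays limits the precision. RMA shrinks changes of dim rows.

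Of 22011 rows, 14432 carried 1 symbol, 2408 several and 5171 none in the platform annotation, and 14404 of the first matched a RefSeq gene of GRCh38.p14 by identifier. No coordinates of array rows are printed, because the annotation names no assembly. Members, lists, tests and alternatives were chosen with earlier results of these data known.

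Paraquat was compared with ctrl row by row with moderated linear models (limma 3.58.1, R 4.3.3) with group as the only term, no scaling and no filter. Tests were two-sided. Differences between relatives were tested by exact permutation of the 10 arrays (SciPy 1.17.1). The text names all members, up to 4 passing genes per other list with the largest changes, passing genes that went against their list, and the 5 genes nearest to MDM2. Further list genes, the rows with several symbols, neighbouring genes and the pairs of relatives were named after their values were seen. Alternatives covered scaling, a filter on dim rows, the spread estimate, array weights, the threshold, the row per gene, each array left out and a block of consecutive sample numbers.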

Additional observations from a re-analysis of the deposited data

Results flagged for a closer look

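In 7 of 66 groups of 5 arrays, over 33 genes and rows named in the text, the highest or lowest array stood so far from the nearest other that the gap took more than 0.71 of the group's range. Chance gives about 1 in 20 groups. Among the members this touched TIGAR, whose value in paraquat 12 was 9.46, against 8.85 to 9.00 on the other treated arrays. GADD45A was 9.19 in ctrl 11, against 8.30 to 8.43 on the other ctrl arrays. PHLDA2 was 7.58 in paraquat 18, against 7.10 to 7.23 on the other treated arrays. PPP2R5E was 9.76 in ctrl 7, against 9.97 to 10.05 on the other ctrl arrays. Of the adrenergic markers, HAND1 was 6.64 in paraquat 12 (others 6.90 to 6.98), TFAP2B was 9.53 in ctrl 11 (others 10.26 to 10.51) and SLC6A2 was 9.79 in ctrl 13 (others 9.30 to 9.44). Each of these 7 genes kept its call with any 1 array left out.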

How the results depend on the processing

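The 7 members stayed raised under all 19 alternatives, with 0 lowered in each, and their median log2 change was 1.12 to 1.40 with 1 array left out. With 1 array left out, 1480 to 2066 rows rose and 1916 to 2642 fell, and at an adjusted p under 0.01 the counts were 1068 and 1424. Centring each array on its median gave 2241 rows raised and 2211 lowered, and quantile normalization gave 2127 and 2392. The main fit gave 1873 and 2524, so the excess of falling rows depended on the scaling. Genes upstream of p53 that fell numbered 1 to 3 with 1 array left out (1 without ctrl 7, 13 or 17 or paraquat 12, 18 or 20), 1 without both ctrl 11 and paraquat 12, 1 at an adjusted p under 0.01 and 5 with array weights. Lowered relatives numbered 1 to 4 with 1 array left out (1 without paraquat 20), 6 with array weights and 1 at an adjusted p under 0.01. Lowered partners numbered 1 to 3 with 1 array left out, 2 with a filter on dim rows, 2 without both ctrl 11 and paraquat 12, and 5 with array weights. Array weights, which gave ctrl 11 a weight of 0.358, also lowered 1 of the other direct targets. Of 626 values of 33 genes and rows, 33 lost their call, all of them of ATR, PPM1B, PFKFB4 or FABP7, and 0 reversed. This count covers the members, the PPM1D and AEN rows and the genes named by rule in each list. Called genes outside it could also lose their call, among them BTG3, XPC and STMN2. Their highest limma adjusted p over the alternatives was 0.0908, 0.0749 and 0.0944. The causes were not tested. The differences between relatives, an alternative chosen after seeing the data, kept their direction with any 1 array left out. The groups share no sample numbers, but each paraquat number follows a ctrl number (8 after 7, and so on), and the labels do not say that this pairs the arrays. Deviations from the group means correlated at 0.091 to 0.461 (across rows) between such arrays, and 3 of the 5 paraquat arrays correlated best with their own ctrl array. With these sets as a replicate block, an alternative also chosen after seeing the data, 2226 rows rose and 3153 fell, all 7 members rose, and 4 upstream genes and 3 partners fell.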

Other observations

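Genes next to the members on the chromosome (the 2 nearest named protein-coding genes on each side in RefSeq, for the 7 measured genes, PPM1D and AEN) were compared as well. Of 36 neighbours 31 were measured, of which 5 rose and 7 fell, with a median log2 change of 0.001, where 9.55% of all genes rose and 14.2% fell. ISG20, next to AEN and also its relative, rose by 1.65, and CSRP1, a LIM-domain protein next to PHLDA3, rose by 1.94 ± 0.15 (limma adjusted p = 1e-05), with 10.30 ± 0.35 in paraquat and 8.36 ± 0.12 in ctrl cells (SD, n = 5 each). PPP1R15B, near MDM4 and a regulatory subunit of the phosphatase for an initiation factor of translation, rose by 1.08 ± 0.16, which is more than MDM4 itself at 0.54. PIK3C2B, a lipid kinase that lies between PPP1R15B and MDM4 in the gene order, fell by 1.15 on the log2 scale (limma adjusted p = 0.000359).

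Of the neighbours that fell, HMMR, a mitotic spindle protein near CCNG1, had 5.03 ± 0.36 with paraquat and 7.83 ± 0.31 in ctrl (log2 change -2.80 ± 0.19, limma adjusted p = 3.44e-06). CCNE2, a cyclin of the entry into DNA replication near TP53INP1, had 5.82 ± 0.37 with paraquat and 6.97 ± 0.38 in ctrl (log2 change -1.15 ± 0.21, limma adjusted p = 0.00298). CCND2, next to TIGAR, was dim in both groups, at 3.66 ± 0.12 with paraquat and 3.67 ± 0.11 in ctrl.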
